A study of Rattus norvegicus with 29 samples.

Results

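The open chromatin around Neto1 on rat chromosome 18 is described here across 4 brain regions and after methamphetamine (METH). The count table of the study holds 98237 open chromatin regions (OCRs), and 23 of them overlap the stretch that reaches 500 kb to either side of the OCR that the study names at Neto1. They were chosen by position alone, and their accessibility was not used. They are numbered 1 to 23 by position on build rn6, and the named one, OCR 10 (chr18:83486473-83487024), is called the Neto1 OCR. The question was whether the other 22 differ between regions and treatments together with it.

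ATAC-seq, which reads accessibility from the places where a transposase can insert into the genome, was run on frozen tissue of adult male Sprague-Dawley rats. METH animals had received 4 intraperitoneal injections of 10 mg/kg METH, 2 h apart, and control animals 4 injections of 1 mL/kg saline at the same interval. Tissue came from the nucleus accumbens (NAc), from 2 parts of the hippocampus, Ammon's horn (CA) and the dentate gyrus (DG), and from the subventricular zone (SVZ), and was taken on the day after the last injection. Each treatment had 4 libraries of NAc, 4 of DG and 4 of CA, and SVZ had 3 saline and 2 METH libraries, so that there were 29 libraries. They came from 8 animals, as inferred from numbers in the names of the peaks. The peak names of SVZ METH replicate 2 carry an additional tag whose meaning is not known. The tissue is a mixture of cell types, so a lower value can come from fewer cells of a type or from less open chromatin per cell, which cannot be told apart here. The labelled tissues were not checked against marker genes, because no annotation of rn6 was used.

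NETO1 is a transmembrane protein with CUB domains that acts as an auxiliary subunit of kainate-type glutamate receptors and also associates with NMDA receptors. It is known in hippocampal neurons, where it shapes kainate receptor currents at mossy fibre synapses of CA pyramidal cells, and mice that lack it have deficits in spatial learning. The protein-coding gene that follows Neto1 on the newer rat assembly GRCr8 is Cbln2, which encodes a cerebellin, a secreted organizer of synapses. Between them that assembly lists 2 pseudogenes and 1 long noncoding RNA. Gene order alone was taken from GRCr8, and whether an OCR lies in an exon, an intron or between genes was not analysed here.

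The libraries held between 7.55 M and 19.4 M counts in OCRs, of which 570 to 3186 fell in the window. CPM below are counts scaled to library size after upper-quartile normalization. The share of counts in the OCRs of the top decile of accessibility, called the top-decile share, ranged from 45.5% to 62.4%, and the highest was in DG METH replicate 1. Some libraries were low across the whole window. The summed CPM of the 23 OCRs was 56.7 in DG METH replicate 1 and 54.3 in DG METH replicate 4, against 124 and 139 in DG METH replicates 2 and 3 and 106 to 137 in DG saline. NAc METH replicate 3 had 96.5, against 142 to 182 in the other NAc libraries, and CA saline replicate 2 had 74.8, against 88.6 to 149 in the other CA libraries. For NAc, DG and CA, each of 2 library batches, inferred from the peak names, held as many METH as saline libraries.

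The window is sparse. A stretch of the same length around any OCR of the table held a median of 57 OCRs, and 10.1% of such stretches held fewer than 23. Widths were ordinary, with a median of 695 bp in the window and 662 bp over all OCRs. The median of the mean CPM over libraries was 3.31 in the window and 4.28 over all OCRs. OCR 9 (chr18:83469700-83472551), 15.6 kb before the Neto1 OCR and its nearest neighbour on that side, stood apart: it was 2852 bp wide, had a mean of 41.8 CPM, which is above 95.0% of all OCRs, and held 32.7% of the CPM of the window. The Neto1 OCR itself is 552 bp wide and had a mean of 5.03 CPM, the eighth highest of the 23. OCR 11 (chr18:83491795-83492622), its nearest neighbour on the other side at 5.46 kb, had 6.32 CPM.

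In the saline libraries the neighbours of the Neto1 OCR differed strongly between the hippocampal regions and the other 2 regions, whereas the Neto1 OCR did not pass the test. With DG and CA set against NAc and SVZ, 12 of the 23 OCRs passed a fold change of 2 and a false discovery rate (FDR) of 0.01 in edgeR's quasi-likelihood test, against 13.7% of all OCRs. Of these, 10 were lower in the hippocampal regions, against 8.4% of all OCRs, and 2 were higher, against 5.3%. All 23 OCRs had passed the filter on low counts, as had every OCR of the table.

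The OCRs that were lower in the hippocampal regions lay on both sides of the Neto1 OCR, from 412 kb before it to 125 kb after it. OCR 8 (chr18:83458572-83459398), 27.8 kb before the Neto1 OCR, had 8.18, 5.81, 10.0 and 12.9 CPM in the 4 NAc saline libraries. The 3 SVZ saline libraries had 2.95, 4.17 and 13.2 CPM at this OCR. Its 8 hippocampal saline libraries ranged from 0.381 to 1.44 CPM, with a median of 0.556. The groups did not overlap, and the hippocampal level was 11.1-fold lower (log2 fold change -3.47 ± 0.39 SE, FDR 8.27e-06). OCR 19 (chr18:83611448-83611962) had 0.0914 to 0.944 CPM in the hippocampal libraries and 2.95 to 7.43 in the others, and was 11.8-fold lower (log2 fold change -3.56 ± 0.40 SE). OCR 3 was 11.0-fold lower and OCR 2 8.82-fold lower, and OCRs 1, 6, 12 and 14 were between 4.04- and 5.54-fold lower. In 8 of the 10, OCRs 1, 2, 3, 6, 8, 12, 14 and 19, every hippocampal saline library lay below every NAc and SVZ saline library, against 5.51% of all OCRs. OCR 16 was 2.64-fold lower with groups that overlapped, since the hippocampal libraries reached 8.72 CPM and the lowest of the others had 5.17.

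OCRs 5 and 11 were more accessible in the hippocampal regions. OCR 5 (chr18:83338457-83339118), 148 kb before the Neto1 OCR, had a median of 3.61 CPM in the hippocampal libraries (1.46 to 6.57) and of 1.22 in the others (0.434 to 1.48), and was 3.40-fold higher (log2 fold change 1.77 ± 0.38 SE, FDR 0.00221). OCR 11 had a median of 9.59 CPM in the hippocampal libraries (3.54 to 14.7) and of 2.34 in the others (1.58 to 6.26), and was 2.64-fold higher (log2 fold change 1.40 ± 0.35 SE, FDR 0.00705). The next OCR after it, OCR 12 (chr18:83493917-83494278), lies 1.29 kb further on and had the opposite profile. It had a median of 0.916 CPM in the hippocampal libraries (0.208 to 1.45) and of 4.67 in the others (1.48 to 6.78), and was 4.64-fold lower (log2 fold change -2.22 ± 0.41 SE, FDR 0.000630).

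The Neto1 OCR lies between these profiles. It had a median of 6.48 CPM in the hippocampal saline libraries (1.71 to 9.14) and of 5.84 in the NAc and SVZ saline libraries (1.56 to 8.27), which overlapped over most of their range. Its log2 fold change was 0.28 ± 0.35 SE, with a 95% interval from -0.41 to 0.96 and an FDR of 0.690. OCR 9 likewise had similar levels, with medians of 43.9 and 44.6 CPM and a log2 fold change of -0.14 ± 0.14 SE.

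**Figure D1:**
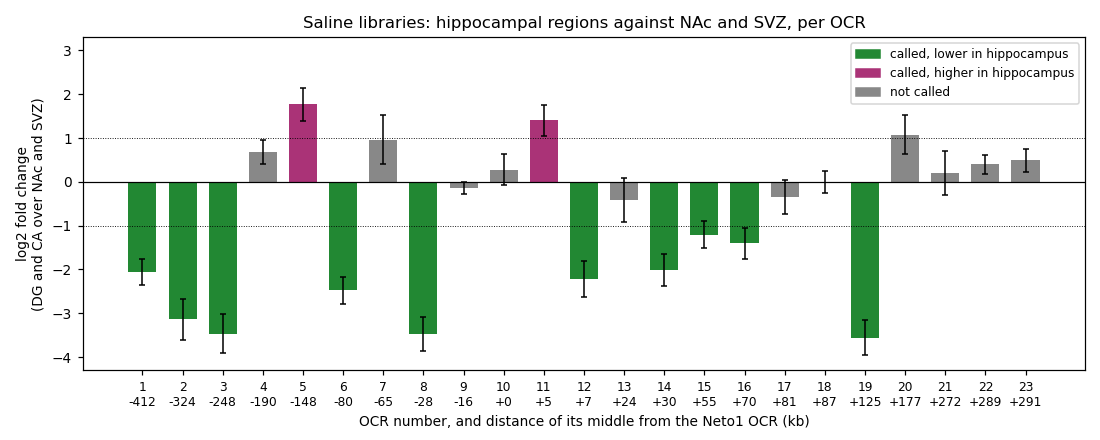
Log2 fold change of the mean of DG and CA over the mean of NAc and SVZ in the 15 saline libraries (bars, with the SE as error bars) at each of the 23 OCRs, in order of position, with the distance from the Neto1 OCR in kb under each number. Dotted lines mark a fold change of 2. The 10 green bars are OCRs called lower in the hippocampal regions and the 2 purple bars, OCRs 5 and 11, are called higher, while the Neto1 OCR (10) sits at 0.28.

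The 12 OCRs kept their direction in every alternative in which they were tested (a filter on mean CPM left 3 of them). With the METH libraries in place of the saline ones, 7 of the 12 were called, and they were OCRs 1, 2, 3, 6, 8, 11 and 19. In batch 2 alone 10 of the 12 were called. The share of all OCRs called in these settings is not given here, so these counts only follow the 12 OCRs. In batch 1 alone, with 7 saline libraries, none was called at this FDR in edgeR, although 13 of the 23 OCRs had an unadjusted p under 0.05, against 21.5% of all OCRs. OCR 8 had a log2 fold change of -3.32 in batch 1 and -3.38 in batch 2, OCR 11 of 1.63 and 1.44, and OCR 12 of -2.18 and -2.11.

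Each region was also set against the mean of the other 3 in the saline libraries. In NAc 7 OCRs were called, all higher in NAc, against 4.66% of all OCRs called higher there. They were OCRs 1, 2, 3, 6, 8, 12 and 19, all of which were also called in the hippocampal comparison, which shares these libraries. The largest was OCR 3, which was 6.63-fold higher in NAc (log2 fold change 2.73 ± 0.42 SE). The mean of the other 3 regions includes DG and CA, where these OCRs were low, and SVZ lay closer to NAc. OCR 3 had means of 4.37 CPM in NAc, 2.85 in SVZ, 0.338 in DG and 0.298 in CA saline. OCR 1 had 6.49 in NAc and 6.06 in SVZ, OCR 8 had 9.22 and 6.79, and OCR 19 had 6.13 and 4.92. These 7 are therefore not read as particular to NAc. The count fell to 4 without NAc saline replicate 3 and also without NAc saline replicate 4. In CA 1 OCR was called, OCR 6, 4.13-fold lower (log2 fold change -2.05 ± 0.38 SE, FDR 0.00811), against 0.708% of all OCRs called lower there. With the animal as a block there were 3 in CA, OCRs 6, 8 and 19, against 1.3% of all OCRs. In DG and in SVZ no OCR was called, against 0.343% and 0.405% of all OCRs, though 12 and 11 OCRs had an unadjusted p under 0.05 in edgeR, against 17.8% and 15.4%. DESeq2 called 4 in DG and 3 in SVZ, against 4.31% and 2.1% of all OCRs. OCR 8 had the smallest p in DG (log2 fold change -2.31 ± 0.49 SE) and OCR 19 in SVZ (log2 fold change 2.16 ± 0.41 SE). Between DG and CA no OCR of the window was called, by edgeR or DESeq2. In edgeR no OCR of the whole table was called (0.0%), and the share for DESeq2 is not given here. In the window 1 OCR, OCR 23, had an unadjusted p under 0.05 with either tool, against 0.893% of all OCRs in edgeR. Its log2 fold change in edgeR was 0.89 ± 0.35 SE, higher in DG. OCR 23 was lower in DG than in CA with the METH libraries in place of the saline ones (log2 fold change -0.97).

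After METH, the Neto1 OCR had lower means in NAc and DG and a slightly higher mean in CA, and the study counts it among the OCRs changed by METH and describes it by these directions, so its values are given as a description. The 4 NAc saline libraries had 5.84, 5.40, 7.43 and 6.24 CPM, and the 4 NAc METH libraries 3.02, 4.71, 0.923 and 5.21. Every NAc METH library lay below every NAc saline library, and NAc METH replicate 3, low across the window, was the lowest. The DG saline libraries had 7.15, 9.14, 4.12 and 7.25 CPM, and the DG METH libraries 1.72, 6.02, 4.23 and 0.762. The DG groups overlapped, and the lowest METH libraries were replicates 1 and 4, which were low across the window. The CA saline libraries had 5.05, 1.71, 5.81 and 8.68 CPM, and the CA METH libraries 9.87, 4.22, 4.95 and 7.62. In SVZ the saline libraries had 2.43, 1.56 and 8.27 CPM and the METH libraries 2.60 and 4.02, with 1 saline library far above the rest.

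By group mean, the Neto1 OCR was highest in DG saline (6.91 ± 2.07 CPM, SD, n = 4), followed by CA METH (6.67 ± 2.59, n = 4), NAc saline (6.23 ± 0.87, n = 4), CA saline (5.31 ± 2.87, n = 4), SVZ saline (4.09 ± 3.65, n = 3), NAc METH (3.47 ± 1.94, n = 4), SVZ METH (3.31 ± 1.00, n = 2) and DG METH (3.19 ± 2.39, n = 4). No pair of neighbours in this order differed by more than their SDs. The fitted log2 fold change of METH over saline was -0.84 ± 0.54 (SE) for NAc, -1.12 ± 0.55 for DG, 0.32 ± 0.53 for CA and -0.29 ± 0.72 for SVZ. Fitted in batch 1 and in batch 2 alone, NAc had -0.54 and -1.14, DG had -1.07 and -1.19, and CA had 1.06 and -0.21. SVZ had -0.55 in batch 2, and batch 1 held no SVZ METH library. Leaving out NAc METH replicate 3 brought NAc to -0.53, leaving out CA saline replicate 2 brought CA to 0.030, and leaving out SVZ saline replicate 3 turned SVZ to 0.73.

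**Figure D2:**
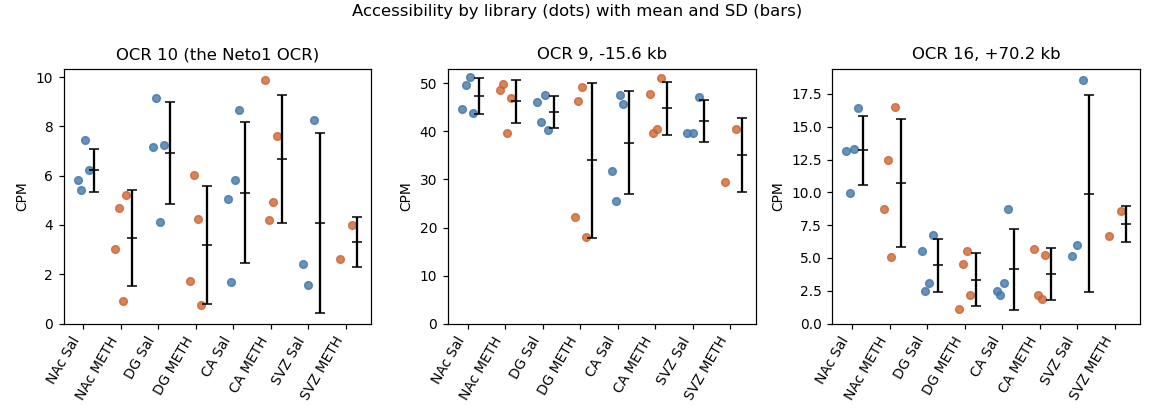
CPM of the Neto1 OCR (left), of OCR 9, the highest of the window (middle), and of OCR 16 (right) in each library (dots, saline blue and METH orange) of the 8 groups, with the mean and SD of each group as black bars. The Neto1 OCR and OCR 9 are both low in 2 of the 4 DG METH libraries, replicates 1 and 4. OCR 16 differs between regions and also varies between DG METH libraries, from 1.12 to 5.51 CPM.

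Among the 22 other OCRs, METH gave no call in any region. A call was set at a fold change of 1.5 and an FDR of 0.001 in edgeR, which no OCR of the whole table passed (0.0%) in any of the 4 regions, and DESeq2 called no OCR of the window either. At an unadjusted p under 0.05, edgeR gave 2 of the 23 OCRs for DG, against 9.84% of all OCRs, 1 for CA, against 0.82%, and 0 for NAc and SVZ, against 2.45% and 3.47%. DESeq2 gave the same counts at that p. The members were thus at or near the background share in NAc, DG and SVZ, and 1 OCR in CA is too few to compare.

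OCR 21 (chr18:83758270-83758775), 272 kb after the Neto1 OCR, had the smallest p in DG. The DG saline libraries had 1.52, 1.37, 1.96 and 8.50 CPM and the DG METH libraries 0.172, 1.46, 1.18 and 0.286. Saline replicate 4 stood far above the others and the groups overlapped. The log2 fold change was -2.11 ± 0.79 SE (edgeR FDR 0.493), and it was -1.05 without saline replicate 4. In NAc this OCR had 4.38, 2.55, 3.34 and 3.62 CPM with saline and 1.31, 2.12, 0.739 and 2.49 with METH, which did not overlap (log2 fold change -1.05 ± 0.74 SE, edgeR FDR 1.00). Beside the Neto1 OCR, it was the only 1 of the 22 others that was lower in every METH library of NAc, against 1.91% of all OCRs, while in DG 0 of the 22 were, against 2.01%. OCR 23, at 291 kb, was the other with an unadjusted p under 0.05 in DG, with 4.76, 8.77, 5.05 and 5.86 CPM after saline and 2.15, 5.59, 2.95 and 1.62 after METH (log2 fold change -0.98 ± 0.44 SE, edgeR FDR 0.493).

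In CA the smallest p was that of OCR 14 (chr18:83516405-83516761), 29.8 kb after the Neto1 OCR. It had 0.692, 0.460, 0.291 and 0.551 CPM in the saline and 0.937, 0.844, 1.24 and 1.29 in the METH libraries, with no overlap. The log2 fold change was 1.10 ± 0.50 SE (edgeR FDR 1.00), at levels that rank among the lowest of the window. It was 1 of 23 without overlap and higher after METH, against 0.483% of all OCRs. In SVZ the smallest p was that of OCR 4, with 5.28, 4.69 and 4.14 CPM in saline and 6.84 and 6.70 in METH libraries (log2 fold change 0.52 ± 0.45 SE, edgeR FDR 1.00). It and OCR 22, named after its values were seen, were higher without overlap in SVZ METH, 2 of 23 against 10.6% of all OCRs. With so few libraries, groups separate easily.

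In NAc, DG and SVZ most of the 23 log2 fold changes were below 0. The median log2 fold change of the 23 OCRs was -0.39 in NAc, where 17, the Neto1 OCR among them, were below 0, against a median of -0.0050 and 50.7% below 0 over all OCRs. In DG it was -0.48 with 17 below 0, against -0.15 and 60.1%. In CA the median was 0.25 with 10 below 0, against 0.023 and 46.6%, and in SVZ -0.24 with 15 below 0, against -0.0050 and 50.5%. The direction pattern of the Neto1 OCR, lower in NAc and DG and higher in CA, was found in 8 of the 22 others (OCRs 6, 7, 9, 12, 14, 17, 18 and 20, of which 7, 17, 18 and 20 were named after their values were seen), against 21.9% of all OCRs. In DG, the log2 fold change of OCR 9 was -0.37 ± 0.24 SE, that of OCR 11 -0.59 ± 0.46, that of OCR 6 -0.58 ± 0.53 and that of OCR 16 -0.42 ± 0.52, each of them under 2 SEs.

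These medians moved with single libraries and batches. The NAc median was -0.17 without METH replicate 3 and -0.59 without METH replicate 4, and -0.083 in batch 1 and -0.55 in batch 2. Over all OCRs the NAc medians in these settings were -0.035, 0.024, -0.0485 and 0.052. The DG median was -0.21 without METH replicate 1 and -0.87 without METH replicate 3, and it was -0.36 in either batch alone. Over all OCRs it was -0.084 and -0.30 without these libraries, and -0.15 in batch 1 and -0.068 in batch 2. When the top-decile share entered the fit as a covariate, the DG median was -0.034, with 12 of the 23 below 0, against -0.093 over all OCRs. The DG difference of the Neto1 OCR was -0.89 in that fit. The CA median was 0.72 in batch 1 and -0.071 in batch 2, against 0.11 and 0.042 over all OCRs. The SVZ median was 0.28 without saline replicate 3, against 0.0019 over all OCRs.

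**Figure D3:**
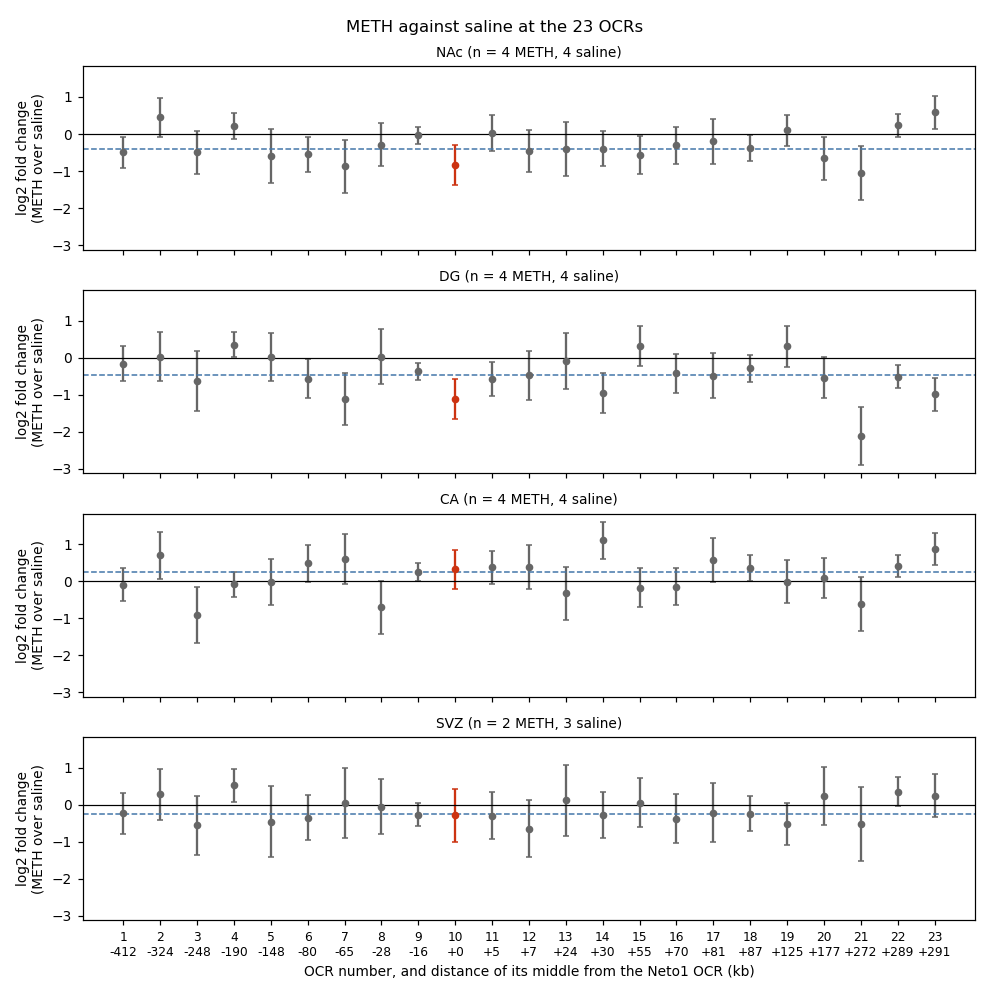
Log2 fold change of METH over saline (dots, with the SE as error bars) at each of the 23 OCRs in NAc, DG, CA and SVZ, with the Neto1 OCR in red and the median of the 23 as a dashed blue line. The medians lie at -0.39, -0.48, 0.25 and -0.24, and the error bars of most OCRs reach 0.

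The METH difference in DG minus that in CA, tested in the same model, gave no call (0.0% of all OCRs). The DG and CA libraries came from the same animals, as inferred from the peak names. This difference was not fitted with the animal as a block, so its SEs and p-values leave that pairing out. An unadjusted p under 0.05 was found at 3 of the 23 OCRs in edgeR, against 8.48% of all OCRs, and at 2 in DESeq2. They were OCR 23 (difference of log2 fold changes -1.85 ± 0.62 SE), OCR 14 (-2.05 ± 0.73) and OCR 22 (-0.92 ± 0.42), named after its values were seen, each with an edgeR FDR of 0.547. All 3 had values below 0 in DG and above 0 in CA. At the Neto1 OCR the difference was -1.44 ± 0.76 SE, and -2.13 in batch 1 and -0.99 in batch 2. The median over the 23 OCRs was -0.64, with 16 below 0, against -0.20 and 60.2% below 0 over all OCRs. This median was -0.97 in batch 1 and -0.36 in batch 2 alone, -0.99 without CA saline replicate 4, and -0.38 when the top-decile share entered the fit. Over all OCRs the medians in these settings were -0.30, -0.081, -0.24 and -0.14.

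The authors removed unwanted variation with factors from RUVr, a method that takes them from the residuals of a first fit. The study describes this removal as a linear regression and does not give the number of factors. The 5 and 10 factors below, and their use, were chosen here. With 5 such factors as covariates in edgeR's quasi-likelihood test, the Neto1 OCR was called in DG (log2 fold change -1.32). No other OCR of the window was called in any region, while 4.44% of all OCRs were called in DG. The DG minus CA difference was called in that fit at 4 of 23, OCRs 9, 10, 17 and 23, against 4.0% of all OCRs. OCR 10 is the Neto1 OCR, which the study names as less open in DG and more open in CA. Its calls in this fit therefore do not compare with these shares, and only the other OCRs do. A further fit changed the number of factors, their use and the test together. On counts corrected by 10 factors, edgeR's likelihood ratio test called 5 OCRs of the window for NAc, against 4.93% of all OCRs, 4 for DG, against 20.2%, 1 for CA, against 1.4%, and 0 for SVZ, against 6.78%. The counts for NAc and DG include the Neto1 OCR, which the study names for such changes, so only the other OCRs compare with these shares. In that fit the Neto1 OCR and OCR 21 were called in both NAc and DG. The others were OCRs 6, 8 and 15 in NAc and 11 and 23 in DG, all lower after METH, and OCR 17 in CA, which was higher. OCRs 15 and 17 were named after their values were seen.

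The OCRs near the Neto1 OCR varied with it from library to library. Each library's log2 CPM was taken as a deviation from its group mean, which removes region and treatment, and correlated with that of the Neto1 OCR over the 29 libraries. This is a description without a test, since libraries share animals, batches and depth. The median Pearson r of the 22 others was 0.58, from -0.32 to 0.79, against a median of 0.0085 over all OCRs. It was above 0 for 21 of the 22 and above 0.5 for 12, against 14.6% of all OCRs. The most alike were OCR 6, 79.8 kb before (chr18:83406480-83407347, r = 0.79), OCR 16, 70.2 kb after (chr18:83556436-83557417, r = 0.76), and OCR 9 (r = 0.76), and OCR 11 had r = 0.70. OCR 4, 190 kb before (chr18:83296042-83296736), was the least alike (r = -0.32). OCRs 6 and 16 were among those called lower in the hippocampal regions and OCR 11 among those called higher, so alike deviations were found at OCRs of opposite region profiles.

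Likeness was higher close by. Within 100 kb of the Neto1 OCR, a limit set after the values were seen, the 12 other OCRs had a median r of 0.67, from 0.29 to 0.79, and 10 were above 0.5. The 10 OCRs farther away in the window had a median of 0.30, and 2 were above 0.5. On chromosome 18 beyond the window, the 8 OCRs up to 1 Mb away had a median of 0.27, the 227 OCRs from 1 to 5 Mb a median of 0.12, and the 2903 OCRs beyond 5 Mb a median of 0.054. OCRs on other chromosomes had a median of 0.0065, and 14.5% of them were above 0.5.

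**Figure D4:**
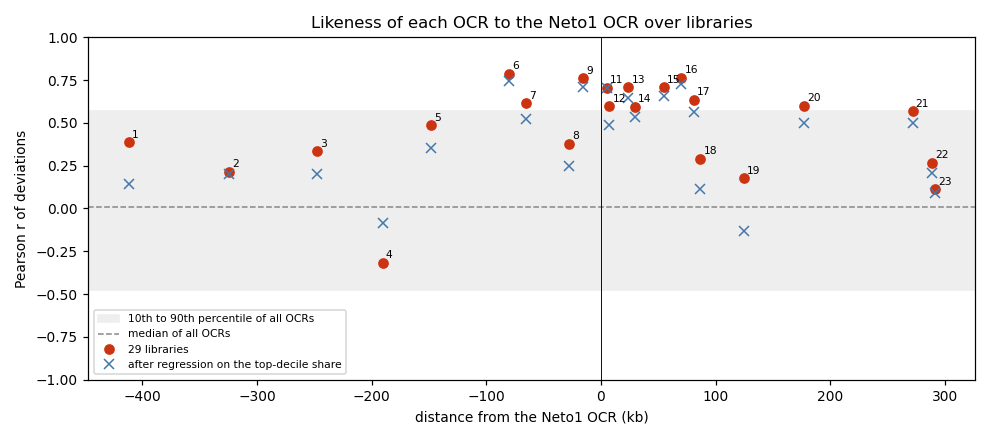
Pearson r between the deviations of each OCR and those of the Neto1 OCR over 29 libraries (red dots, numbered by OCR) and after regression of both on the top-decile share (blue crosses), against the distance from the Neto1 OCR in kb. The grey band spans the 10th to 90th percentile of all OCRs and the dashed line is their median of 0.0085, and most OCRs within 100 kb lie above the band while OCR 4 lies at -0.32.

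The shared deviations could be followed in single libraries. In NAc METH replicate 3, 18 of the 22 others were below their group mean, together with the Neto1 OCR, which was 1.51 below it in log2 CPM. In DG METH replicates 1 and 4, 21 and 18 of the 22 were below it, and in CA saline replicate 2, 17 were. SVZ saline replicate 3, where the Neto1 OCR was 1.33 above its group mean, had 3 of the 22 below it. Leaving out 1 library at a time gave a median r between 0.50 and 0.62, and the lowest was without SVZ saline replicate 3. The deviations of the window also followed the top-decile share, with a median r of -0.52 over the 22 others and -0.39 for the Neto1 OCR, against -0.16 over all OCRs. After regression on that share the median r was 0.49, with 10 of the 22 above 0.5, against 9.83% of all OCRs. Saline libraries alone gave a median of 0.38 with 7 above 0.5 (10.6% of all OCRs), and METH libraries alone 0.69 with 13 above 0.5 (22.0%). Of single regions, NAc had a median of 0.75 with 16 above 0.5 (21.2%), DG 0.54 with 13 (22.3%), CA 0.68 with 13 (35.0%) and SVZ 0.78 with 17 (24.4%).

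**Figure D5:**
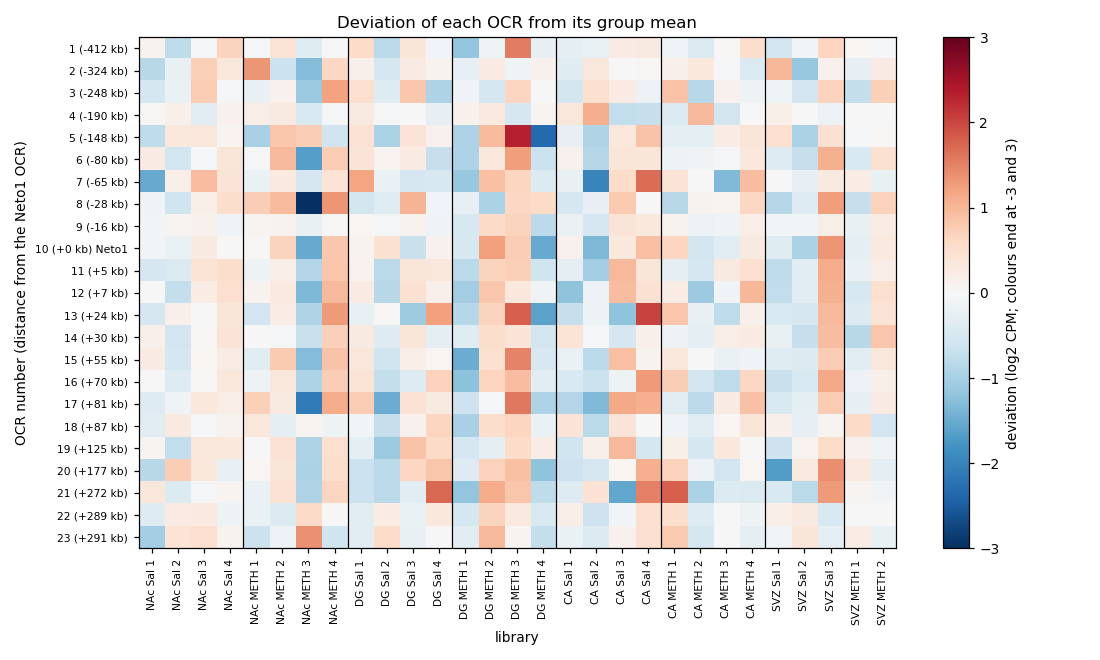
Deviation of log2 CPM from the group mean for each of the 23 OCRs (rows, in order of position with the distance from the Neto1 OCR) in each of the 29 libraries (columns, with black lines between the 8 groups), red above and blue below the mean, with colours ending at -3 and 3. NAc METH replicate 3 and DG METH replicates 1 and 4 are blue at most OCRs, and SVZ saline replicate 3 is red at most.

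Over the 8 group means, which carry region and treatment, the likeness was weaker. The median r of the 22 others with the Neto1 OCR was 0.17, against 0.012 over all OCRs, and 9 were above 0.5, against 18.5%. OCR 9 had r = 0.59, OCR 11 0.56, OCR 5 0.58 and OCR 21 0.70, while the OCRs called lower in the hippocampal regions lay between -0.33 and 0.041. In the deviations the same OCRs had a median r of 0.49, from 0.18 to 0.79.

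The peak lists, called in each library on its own, are a second readout of the same reads. A peak overlapped the Neto1 OCR in 21 of the 29 libraries. It was present in 4 of 4 NAc saline, 3 of 4 NAc METH, 4 of 4 DG saline, 2 of 4 DG METH, 3 of 4 CA saline, 4 of 4 CA METH, 1 of 3 SVZ saline and 0 of 2 SVZ METH libraries. The libraries of NAc, DG and CA without a peak were NAc METH replicate 3, DG METH replicates 1 and 4 and CA saline replicate 2. OCRs 4 and 9 had a peak in all 29 libraries. OCRs 2, 3, 6, 8, 12, 14 and 19 had none in the 16 DG and CA libraries, and between 4 and 12 in the 13 NAc and SVZ libraries. OCR 5 had a peak in 12 of the 16 DG and CA libraries and in none of NAc or SVZ. OCR 11 had a peak in all 16 DG and CA libraries and in 4 of the 13 others. The share of all OCRs with such peak patterns is not given here. The OCRs were themselves merged from peaks, so an OCR can be in the count table through the region where it is high. These peak counts therefore only describe the members.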

How the data were processed

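The authors ran the AIAP pipeline on each ATAC-seq library against rn6, merged peaks into OCRs with bedtools, and deposited raw counts per OCR. They also deposited peak lists per library, whose fold enrichment (a ratio) and −log10 p and q values come from the peak caller. Which read counter they used was not stated in these sources. Counts were fitted with edgeR 4.0.16 (R 4.3.3), upper-quartile normalization, filterByExpr and quasi-likelihood tests, with Benjamini-Hochberg FDR over all 98237 OCRs. METH was tested over all 29 libraries in 8 groups, and regions over the 15 saline libraries. Deviations used log2 CPM with a prior count of 2. Peaks were matched by an overlap of 1 bp. No 2 libraries were duplicates.

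Animal numbers and batches were inferred from the peak names and are not stated by the sample labels. A number in the name was taken as the animal, and the case of 1 letter as the batch. Animals contributed to several regions, and p-values measure the spread between these samples. Since regions came from the same animals, region comparisons of the saline libraries were also fitted with the animal as a block. The DG minus CA difference of the METH effect was not. Deviations of regions from the same animal had r from -0.43 to 0.66, with 15 of 39 pairs above 0.1.

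Alternatives were TMM and DESeq2 1.42.0, other filters, RUVr factors, batch, the top-decile share, replicate blocks and leaving out each library. The members and lists were chosen with earlier results of these data known. The OCRs named were the Neto1 OCR, its neighbours, the highest, the smallest p of each contrast, the 3 highest and 1 lowest r, and up to 10 called per contrast. The tests were checked on simulated data. Sequences were not used here, since no genome of rn6 was at hand.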

Additional observations from a re-analysis of the deposited data

Results flagged for a closer look

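In 4 of 96 sets of 4 libraries tested at the named OCRs, 1 library lay far from the other 3, where chance gives about 1 in 20. At OCR 16, CA saline replicate 4 had 8.72 CPM against 2.17 to 3.12 in the other CA saline libraries. At OCR 21, DG saline replicate 4 had 8.50 CPM against 1.37 to 1.96, and CA METH replicate 1 had 4.90 against 0.591 to 0.927. At OCR 23, NAc METH replicate 3, which was low at most OCRs of the window, had 9.88 CPM against 2.32 to 3.32 in the other NAc METH libraries. In the peak lists, data outside the count table gave a mean of 4.29 ± 3.71 (SD, n = 14) peaks of the window that overlap no OCR per METH library, against 3.33 ± 4.05 (SD, n = 15) per saline library, which differ by less than their spread.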

How the results depend on the processing

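The number of OCRs called in the METH comparisons was 0 in every alternative except 2. With 5 RUVr factors as covariates there were 1 in DG, the Neto1 OCR, and 4 for the DG minus CA difference, the Neto1 OCR among them. Counts corrected by 10 factors, with a likelihood ratio test in place of the quasi-likelihood test, gave 5 in NAc, 4 in DG, 1 in CA and 5 for the DG minus CA difference, where the factors and the test changed together. The Neto1 OCR was among those of NAc, of DG and of the difference. The share of all OCRs called for that difference is not given here, while 20.2% were called in DG in that fit. The 5 are therefore not read as a result about the window. With the replicate block (equal numbers of METH and saline libraries, which correlated with r from -0.26 to 0.69, 7 of 14 pairs above 0.1, and so were not taken to pair the samples) the METH counts were 0, and in SVZ the Neto1 OCR turned to 0.73 and the window median to 0.26. Over all OCRs the SVZ median was 0.014 with this block. With the animal as a replicate block, 12 OCRs were called for hippocampal against other regions, 9 in NAc, 3 in CA and 0 in DG and SVZ. Reversed in batch 2 alone were the CA values of the Neto1 OCR (-0.21) and of the window median (-0.071), and without SVZ saline replicate 3 the SVZ values (0.73 and 0.28), where leaving out single libraries gave -0.69 to 0.73 and -0.42 to 0.28. OCR 23 in DG against CA reversed with METH libraries (-0.97). The hippocampal count of 12 became 7 with METH libraries, 0 in batch 1 alone and 1 with a mean CPM of at least 5, which left 8 OCRs of the window. The NAc count of 7 became 0 with that filter and in batch 1 alone, 4 with METH libraries, 11 with the top-decile share in the fit, and 4 to 9 leaving out single libraries. The CA count of 1 became 0 with TMM, with that filter and in either batch, 7 with the top-decile share, 8 with DESeq2, and 0 to 4 leaving out single libraries; it stayed at 1 only without NAc saline replicate 2, DG saline replicate 4 or SVZ saline replicate 2. The DG count of 0 became 3 with the top-decile share, 4 with DESeq2 and 0 to 2 leaving out single libraries (2 without CA saline replicate 4), and the SVZ count 2, 3 and 0 to 2, and 1 with all 29 libraries in the fit. The median likeness of 0.58 became 0.75 in NAc, 0.78 in SVZ and 0.38 in saline libraries alone, where 7 OCRs were above 0.5. DESeq2 moved the DG median of all OCRs from -0.15 to -0.0059 and that of the window from -0.48 to -0.37. The causes of these changes were not tested. The share of all OCRs called also changed with the setting. In DG it was 0.343% in edgeR and 4.31% in DESeq2, and in SVZ 0.405% and 2.1%. Where that share is not given, a change in the number of window OCRs called is not read as particular to the window. The window held 570 counts in DG METH replicate 4, the fewest of any library, which limits what can be seen at OCRs of low CPM. That library held 11.2 M counts in OCRs and was not the shallowest.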

Other observations

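Of 509 peaks called in the window over the 29 libraries, 110 overlapped no OCR of the count table, 50 in saline and 60 in METH libraries. They merged into 43 places, of which 20 had a peak in 1 library and 23 in 2 or more. The most frequent, 162 kb before the Neto1 OCR (chr18:83324596-83325148), had a peak in 9 libraries, 5 saline and 4 METH. A place between OCR 9 and the Neto1 OCR, chosen after the values were seen (chr18:83480040-83480498, 6.48 kb before the Neto1 OCR), had a peak in 3 METH and 1 saline libraries.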
